A study of Homo sapiens with 4 samples.

Results

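The keratin genes were taken as the RefSeq GRCh38 protein-coding genes whose symbol is KRT followed by a number and at most 1 letter. Of 19974 protein-coding genes (chromosome Y left out), 55 met this rule, with 28 on chromosome 17 and 27 on chromosome 12. They were examined in ChIP-seq of H3K9la, which is lactylation of histone H3 on lysine 9. The cells were KYSE30, an established line of oesophageal squamous cell carcinoma, grown in DMEM with 10% FBS. The series title names SIRT3, a sirtuin, as an eraser of this mark. Its arms carry the labels sg3 and V2, and the sources used here do not say what genotype or treatment these names mean. For either arm there was 1 library of the ChIP and 1 of the input, without replicates. The data are 2 peak lists of 56875 (sg3) and 40332 (V2) records. GEO holds the V2 list with the input of that arm, so its link to the V2 ChIP rests on the arm's name. A record is a stretch of the genome called as enriched. Its fold enrichment over background and its -log10 q are the authors' values at the summit, and they rank records only within their own list. A difference between the lists therefore compares 2 libraries, with no replicate check and no p-value.

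Keratins are the intermediate filament proteins of epithelia. A type I keratin pairs with a type II keratin, and the type I genes lie together on chromosome 17 and the type II genes on chromosome 12. KRT18 is a type I gene that lies beside its partner KRT8 on chromosome 12. Simple epithelia use KRT8 and KRT18, with KRT7, KRT19 or KRT20. Basal cells of stratified epithelia use KRT5 and KRT14, and the upper layers of the oesophagus use KRT4 and KRT13. KRT6A, KRT16 and KRT17 are known from wounds and squamous carcinomas, and many other members serve the hair follicle. Lactylation of histone lysines is derived from lactate and is known from active promoters and enhancers. A record shows where the mark was enriched and does not measure expression.

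Both lists had a record at 4 of 5 simple epithelial keratins, 2 of 3 basal, 2 of 2 oesophageal suprabasal, 3 of 5 wound, 1 of 5 epidermal suprabasal, 1 of 2 corneal, 10 of 17 hair, 2 of 8 inner root sheath and 5 of 8 other keratins. Differences between these groups were not tested. An sg3 record overlapped or lay within 5 kb of 40 of the 55 genes, which is 72.7% (exact Clopper-Pearson 95% CI 59.0 to 83.9%), against 59.4% of all protein-coding genes. A V2 record did so for 31 genes, or 56.4% (95% CI 42.3 to 69.7%), against 41.8%. Among the 12108 protein-coding genes as long as keratins, from 2990 to 52670 bases, these backgrounds were 58.5% and 39.5%. The lower bound for sg3, 59.0%, lay between its backgrounds of 58.5% and 59.4%, and that for V2 lay above both of its own. Neighbouring keratins share records, so these intervals, which cover counting error only, are too narrow for genes that are not independent. Both lists had a record at 30 keratins (54.5%, against 41.2% of all genes and 38.9% of those as long as keratins). A gene in both lists need not hold records that overlap between the lists, and at KRT39 and KRT79 no records did. The sg3 list alone had one at 10 keratins, which is 18.2%, the same as the 18.2% over all genes and close to the 19.6% of genes as long as keratins. When the longer sg3 list was shortened to the length of the V2 list, this count fell to 5, and KRT5, KRT6B, KRT71, KRT73 and KRT75 were no longer in it. The share over all genes was not recomputed at that length. The V2 list alone had one at KRT35 (1.82%, against 0.646% of all genes and 0.562% of those as long). Neither list had one at 14 keratins, or 25.5%, against 40.0% and 40.9%.

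An sg3 record lay within 5 kb of 22 of 26 type II genes and 18 of 29 type I genes, with intervals of 65.1 to 95.6% and 42.3 to 79.3% that overlap. A V2 record did so for 16 type II and 15 type I genes. The hair and inner root sheath keratins, which form the hair shaft and the sheath that moulds it, had an sg3 record at 16 of 25 genes and a V2 record at 13. For the other 30 keratins, with KRT75 of the hair follicle among them, these counts were 24 and 18. This difference was not tested either.

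**Figure D1:**
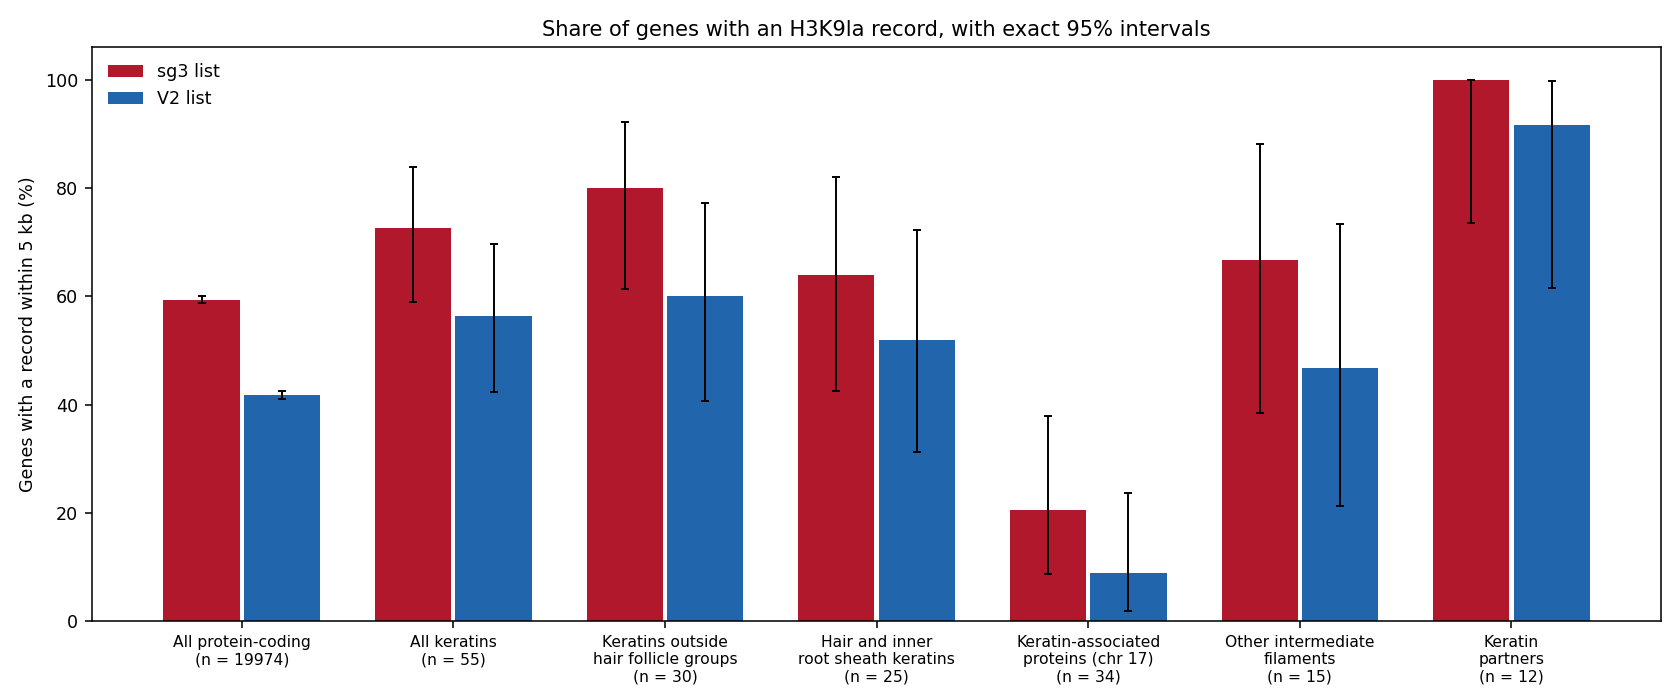
Percent of genes (y axis) with a record overlapping the gene or within 5 kb in the sg3 list (red) and the V2 list (blue) for each gene list (x axis, with n). Bars are shares and lines are exact 95% intervals. The keratins reach 72.7% and 56.4%, and the keratin-associated protein genes between them on chromosome 17 reach 20.6% and 8.82%.

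The lists set beside the keratins are read against the same 59.4% (sg3) and 41.8% (V2) of all protein-coding genes. Of 12 keratin partners, which are plakins and desmosome proteins that anchor the filaments (DSP, PPL, EVPL and JUP among them) and other keratin-binding proteins, 12 had an sg3 record and 11 a V2 record. TCHP, a keratin-binding protein, was the member with an sg3 record alone. Of 15 intermediate filament genes outside the keratin family, 10 had an sg3 record (66.7%) and 7 a V2 record (46.7%), shares near those of all genes. LMNA, DES, GFAP and NES were among those in both lists, and VIM and INA among those in sg3 alone. PRPH, NEFH, NEFM and NEFL were in neither. The 34 keratin-associated protein genes on chromosome 17, which encode matrix proteins of the hair shaft, had an sg3 record at 7 genes and a V2 record at 3. As a check of the cell label, 10 of 10 squamous markers had an sg3 record and 9 a V2 record, and KRT5 was the exception. For glandular markers these counts were 6 and 4 of 10, near the shares of all genes, and for fibroblast markers 2 and 2 of 10. For blood markers they were 8 and 5 of 10, above the shares of all genes in both lists. A record within 5 kb is therefore not specific to markers of squamous cells, and the check cannot settle the cell label. Differences between the marker lists were not tested. KRT5 and KRT14 are members of that squamous list.

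Simple epithelial keratins carried the highest sg3 -log10 q of the family, at KRT8, and were in both lists except for KRT20. KRT8 (chromosome 12, 52897191 to 52949860) had 16 sg3 and 24 V2 records, all overlapping its annotated span, and they covered 59.4% and 48.9% of it. Its strongest sg3 record ran from 52905270 to 52911463. Its fold enrichment was 19.0 and its -log10 q 117.1, above 99.4% of the sg3 list, and pairs of values in parentheses are given in this order from here on. The strongest V2 record, from 52905347 to 52907920 (13.1 and 67.8), lay inside it. The annotated span of KRT8 reaches over the lower-coordinate end of KRT18 (52948855 to 52952906). The record across that end ran from 52946517 to 52948988 in sg3 (10.6 and 64.9) and from 52946655 to 52948905 in V2 (8.39 and 41.6), so it belongs to both partners. Inside KRT18 beyond it, sg3 had a record from 52949181 to 52950275 (4.16 and 12.2), and V2 had none.

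KRT7 and KRT19 were covered in both lists as well. KRT7 (chromosome 12, 52233243 to 52255853) had an 11312-base sg3 record in its body, the widest at any keratin, from 52239448 to 52250759 (18.4 and 100.2). The V2 list had 5 records in the same stretch, and the strongest, from 52241215 to 52247504 (13.1 and 49.8), was the only V2 record of at least 5 kb at a keratin. Another record lay across the lower-coordinate end, from 52230580 to 52236058 in sg3 (7.07 and 32.7) and from 52231708 to 52234748 in V2 (7.57 and 30.7). In all, 75.5% of KRT7 was covered in sg3 and 51.9% in V2. At KRT19 (chromosome 17, 41523617 to 41528308) the strongest record lay just past the higher-coordinate end in both lists, 217 bases away in sg3 and 261 in V2. It ran from 41528525 to 41531436 in sg3 (10.5 and 90.7) and from 41528569 to 41531296 in V2 (9.74 and 59.4). KRT20, the keratin of intestinal epithelium, had no record within 5 kb, and the nearest lay 9816 and 9815 bases away.

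Of the basal keratins KRT14 and KRT15 were in both lists, and KRT5 was in sg3 alone. KRT5 (chromosome 12, 52514575 to 52520394) had an sg3 record inside the gene, from 52519805 to 52520332, with its summit 327 bases from the higher-coordinate end (4.98 and 7.01). Another lay outside, from 52521526 to 52522057 (4.77 and 8.51). They were above 18.7% and 28.1% of the sg3 list, and the nearest V2 record was 21329 bases away. KRT14, its type I partner (chromosome 17, 41582279 to 41586895), had 9 sg3 records, of which 5 overlapped it and covered 66.1% of its length. They included 1 across each end, with -log10 q of 19.1 at the lower-coordinate end and 18.7 at the higher. Only the lower end had a V2 record, from 41582268 to 41582669 (5.54 and 9.89), and 8.47% of the gene was covered. KRT15, another basal keratin (41513745 to 41518890), was flanked by strong records that it shares with KRT13 and KRT19. Its own body held sg3 records with -log10 q of 3.77 and 7.94 and V2 records with 8.62 and 7.15.

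The oesophageal suprabasal pair differed in strength. KRT13 (chromosome 17, 41500981 to 41505612) was covered over 85.5% of its length in sg3 and 30.6% in V2. An 8247-base sg3 record ran from 41504892 across the higher-coordinate end to 41513138 (15.5 and 85.7). It held 5 V2 records, the strongest from 41506361 to 41507620 (13.1 and 49.8), and the summits of the sg3 and V2 records lay 2 bases apart. KRT4, the type II partner (chromosome 12, 52806549 to 52814116), had 1 record over its start in each list, and 4 further sg3 records outside the gene. The sg3 record ran from 52813359 to 52814196 (6.17 and 16.6) and the V2 record from 52813590 to 52814222 (3.84 and 5.11), and they covered 10.0% and 6.96% of the gene.

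Wound and hyperproliferative keratins were in both lists at KRT6A, KRT16 and KRT17, and not at KRT6B and KRT6C. KRT17 (chromosome 17, 41619442 to 41624575) was the most completely covered keratin, at 89.1% in sg3 and 75.6% in V2. Its strongest record crossed the higher-coordinate end, from 41621350 to 41628668 in sg3 (9.91 and 60.2) and from 41622095 to 41627011 in V2 (7.15 and 37.1). KRT16 (41609778 to 41612767) had a record across the same end, from 41612097 to 41612861 in sg3 (9.21 and 51.6) and from 41612329 to 41612814 in V2 (5.37 and 20.0). KRT6A, the type II partner (chromosome 12, 52487176 to 52493257), had one at its higher-coordinate end, from 52492498 to 52493269 in sg3 (7.99 and 36.2) and from 52492660 to 52493246 in V2 (4.56 and 11.6). Beside it, KRT6B had an sg3 record 3664 bases away (4.98 and 7.01), with the nearest V2 record at 5821 bases, and the nearest record to KRT6C lay 18693 bases away. KRT6A, KRT6B and KRT6C are near-identical copies. KRT81, KRT83 and KRT86, and KRT33A and KRT33B, are also close in sequence, and KRT8, KRT18, KRT14, KRT16 and KRT17 have pseudogene copies. The sources used here do not say how reads with several alignments were treated, so values at these genes are uncertain.

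Epidermal suprabasal and corneal keratins were marked in part. KRT1 (chromosome 12, 52674736 to 52680407), which makes the filaments of the epidermal upper layers with KRT10, had an sg3 record inside the gene from 52675086 to 52675748 (6.31 and 21.2) and a V2 record from 52675175 to 52675589 (4.56 and 8.9). KRT10 itself (chromosome 17, 40818117 to 40822614) had a single sg3 record from 40818681 to 40819106 (3.67 and 14.3), and the nearest V2 record lay 12033 bases away. KRT9, the keratin of palm and sole skin, had an sg3 record over its start (4.80 and 10.5), and the nearest V2 record lay 7748 bases away. KRT2 and KRT77 had none in either list. Of the corneal pair, KRT3 had 5 sg3 records, with -log10 q from 4.19 to 23.4, and the nearest V2 record lay 17473 bases away. KRT12 had 4 records in each list, and the strongest lay outside the gene, 1572 bases away in sg3 (-log10 q 40.9) and 2395 in V2 (-log10 q 30.7).

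Of the 7 textbook pairs examined (KRT8 with KRT18, KRT5 with KRT14, KRT4 with KRT13, KRT1 with KRT10, KRT3 with KRT12, and KRT6A with KRT16 or KRT17), 4 had both partners in both lists. In each of the other 3 pairs, 1 partner was in both lists and the other in sg3 alone. The sg3-only partner was KRT5, KRT10 or KRT3. These calls depend on the threshold. KRT5 had no record in either list at a -log10 q of at least 10 or in lists of equal length. At a -log10 q of at least 10, KRT4 and KRT14 had sg3 records alone.

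Hair keratins, whose products form the hair shaft, included some of the most covered members. KRT81 (chromosome 12, 52285913 to 52291534), which lies inside the annotated span of KRT86, was covered over 86.1% in sg3 and 62.1% in V2. The V2 record with the highest -log10 q at any keratin lay beside it, from 52280718 to 52284698 (17.3 and 76.1), and its sg3 counterpart ran from 52280618 to 52284735 (11.5 and 73.0). KRT86 also held an sg3 record from 52276334 to 52280401 (22.1 and 97.9), the highest fold enrichment at any keratin, and a V2 record from 52277221 to 52280347 (10.7 and 36.1). KRT83 next to them had 9 sg3 records and 2 V2 records, with top -log10 q of 14.3 and 14.8. At KRT85 the top values were 29.7 in sg3 and 9.58 in V2. KRT84 and KRT82 share their strongest record in both lists (19.5 in sg3 and 8.55 in V2), which lies between them.

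Hair keratins on chromosome 17 were marked unevenly. KRT31, KRT32, KRT37 and KRT39 were in both lists, with top -log10 q of 24.3, 10.9, 26.2 and 11.4 in sg3 and of 15.0, 9.57, 19.4 and 19.3 in V2. At KRT37 every record of either list lay outside the gene. The top records of KRT31 in both lists and the top sg3 record of KRT39 also lay outside. At KRT31 the records that overlapped the gene did not overlap each other. At KRT39 no sg3 record overlapped the V2 record. KRT33A (41346092 to 41350828) had 6 sg3 records, of which the strongest (11.4 and 29.7) lay outside the gene and another (7.90 and 16.3) over its start, and its nearest V2 record lay 9805 bases away. KRT36 had 3 sg3 records, the strongest with a -log10 q of 28.7, and its nearest V2 record lay 5032 bases away, just past the 5 kb limit. KRT35 had a V2 record 3001 bases away (3.89 and 4.07), which was among the weakest of that list, and its nearest sg3 record lay 8182 bases away. KRT33B, KRT34, KRT38 and KRT40 had none in either list.

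Inner root sheath keratins split by chromosome. All 4 on chromosome 17 (KRT25, KRT26, KRT27 and KRT28) had no record within 5 kb in either list. On chromosome 12, KRT74 and KRT72 lay on either side of a marked stretch. Within 5 kb of KRT74 the strongest sg3 record ran from 52578542 to 52580168 (19.7 and 75.1) and the V2 record from 52577786 to 52578362 (9.41 and 34.6). On the KRT72 side they ran from 52580512 to 52582972 (15.2 and 57.8) and from 52580652 to 52581702 (14.6 and 37.3). All of these lay outside the genes. KRT71 had an sg3 record 3849 bases away (-log10 q 4.34), and no other counted gene lay farther from its nearest sg3 record. KRT73 had 2 sg3 records in its body (-log10 q 7.84 and 7.01). The nearest V2 records lay 24641 bases from KRT71 and 22779 from KRT73.

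Among the remaining members, KRT80, a keratin of many differentiating epithelia, had 17 sg3 records and 12 V2 records. Records flanked it on both sides, with -log10 q of 68.7 and 67.9 in sg3 and of 61.0 and 35.0 in V2, and 1 crossed its higher-coordinate end in each list (-log10 q 41.1 in sg3 and 29.4 in V2). KRT23 (chromosome 17, 40922700 to 40937646) had its strongest sg3 record inside the gene, from 40936166 to 40936739 (16.1 and 54.5), with a V2 record from 40936257 to 40936737 (10.1 and 21.6). KRT78 had 6 sg3 and 3 V2 records, with top -log10 q of 21.7 and 5.95. KRT79 had 9 sg3 records and 1 V2 record, with top values of 14.3 and 4.99, and the V2 record overlapped no sg3 record. The records at KRT24 all lay outside the gene, with top values of 6.47 in sg3 and 13.6 in V2. KRT75, of the hair follicle, had an sg3 record 183 bases away (-log10 q 3.92), and its nearest V2 record was at 6027 bases. KRT76 and KRT222 had none, and KRT222 was the nearest miss in sg3, at 5974 bases.

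**Figure D2:**
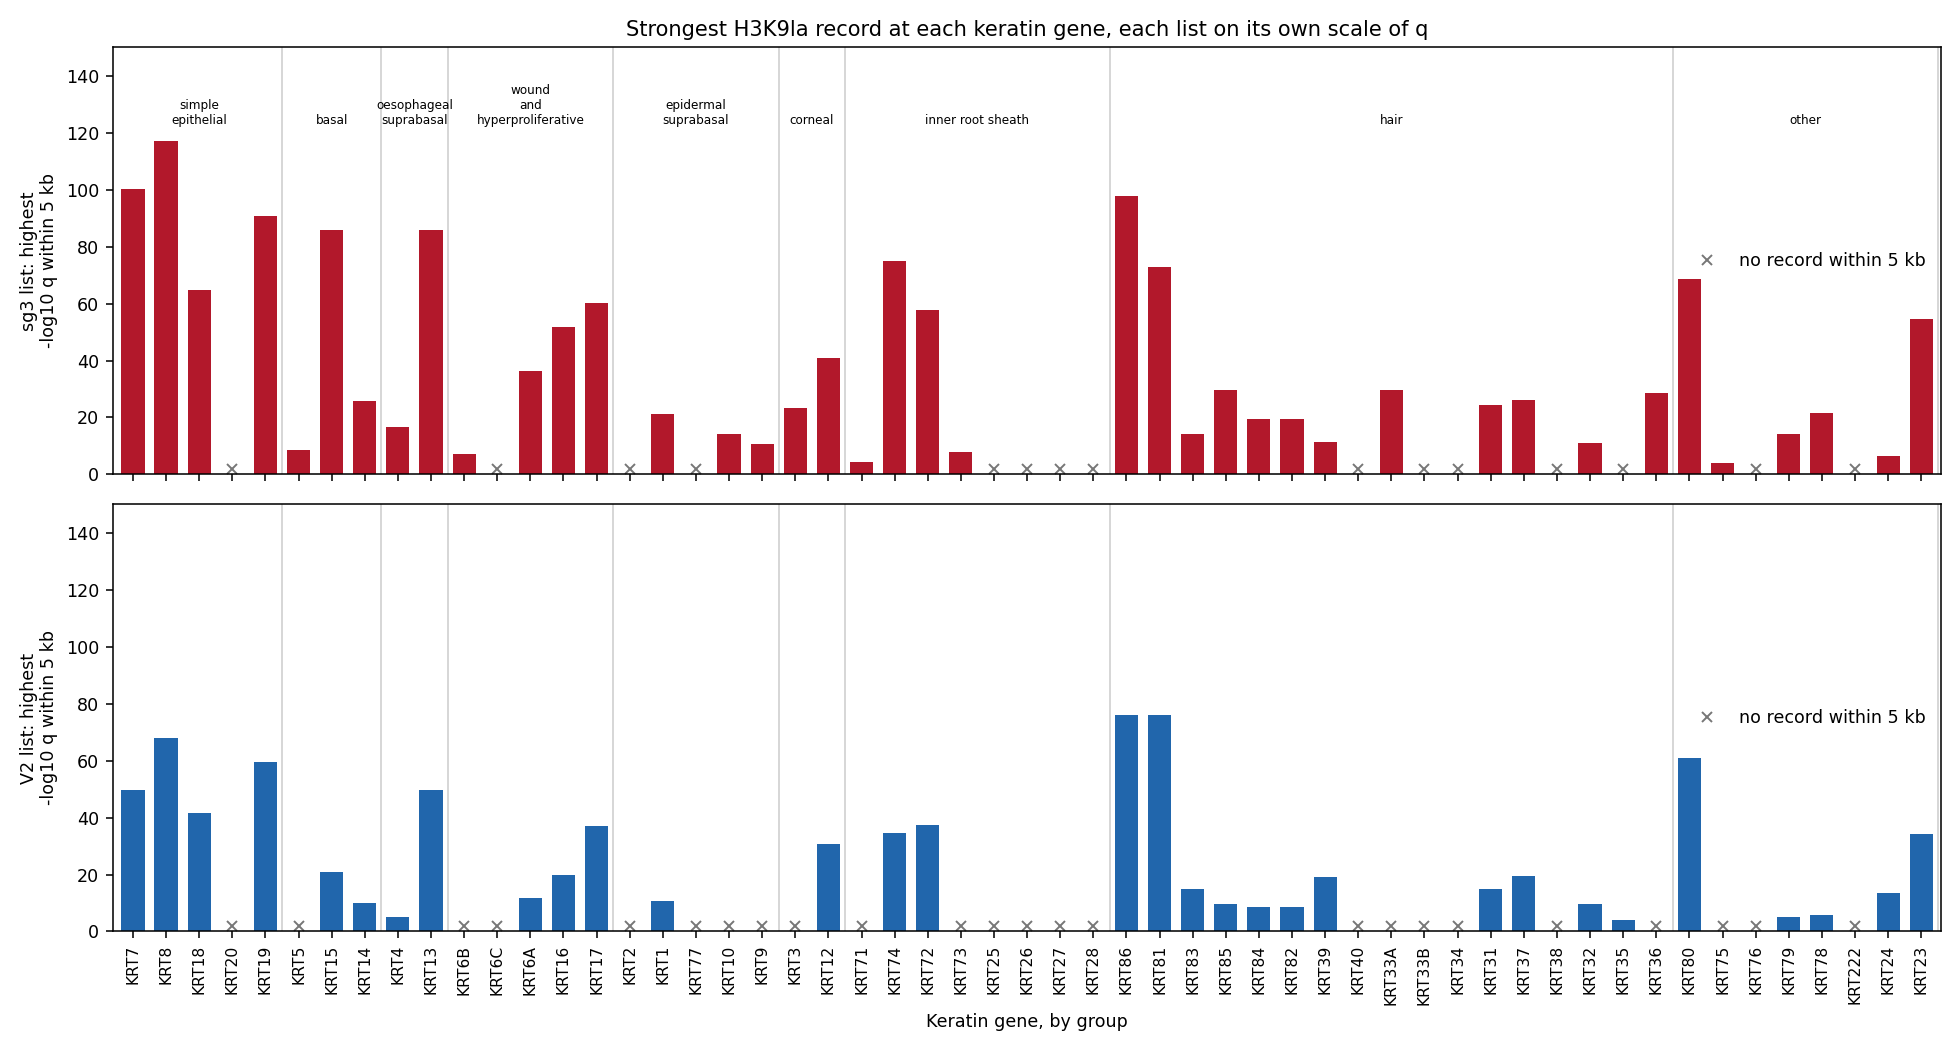
Highest -log10 q (y axis) of any record overlapping each keratin gene or within 5 kb, for the sg3 list (top) and the V2 list (bottom), with genes grouped by role (x axis); crosses mark genes without a record. KRT8, KRT7, KRT86 and KRT19 reach 90.7 or more in sg3, and KRT86 with KRT81, KRT8, KRT80 and KRT19 reach 59.4 or more in V2.

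Along chromosome 12 the type II cluster was densely but unevenly covered. From KRT80 to KRT18 (52168996 to 52952906, 783.9 kb) it held 134 sg3 records over 23.2% of its bases and 96 V2 records over 12.6%. Over the whole chromosome, gene-poor stretches included, these shares were 1.96% and 1.22%. A stretch of like gene density was not measured beside the cluster. No protein-coding gene other than the 27 keratins lies in the cluster. The records were grouped toward both edges, from KRT80 to KRT85 and from KRT78 to KRT18, and between KRT74 and KRT72. Between KRT78 and KRT8 a 13283-base sg3 record from 52865334 to 52878616 (20.8 and 116.7) touched no protein-coding gene, and the strongest V2 record ran from 52865597 to 52867640 (18.8 and 73.2). In that 48.2 kb stretch 46.6% of bases were covered in sg3 and 41.6% in V2. Between KRT80 and KRT7 these shares were 65.9% and 31.4%. The middle held the longest stretch without a record, which was 117.0 kb in sg3 with KRT77 and KRT76, and 138.0 kb in V2 with KRT77, KRT76 and KRT3.

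**Figure D3:**
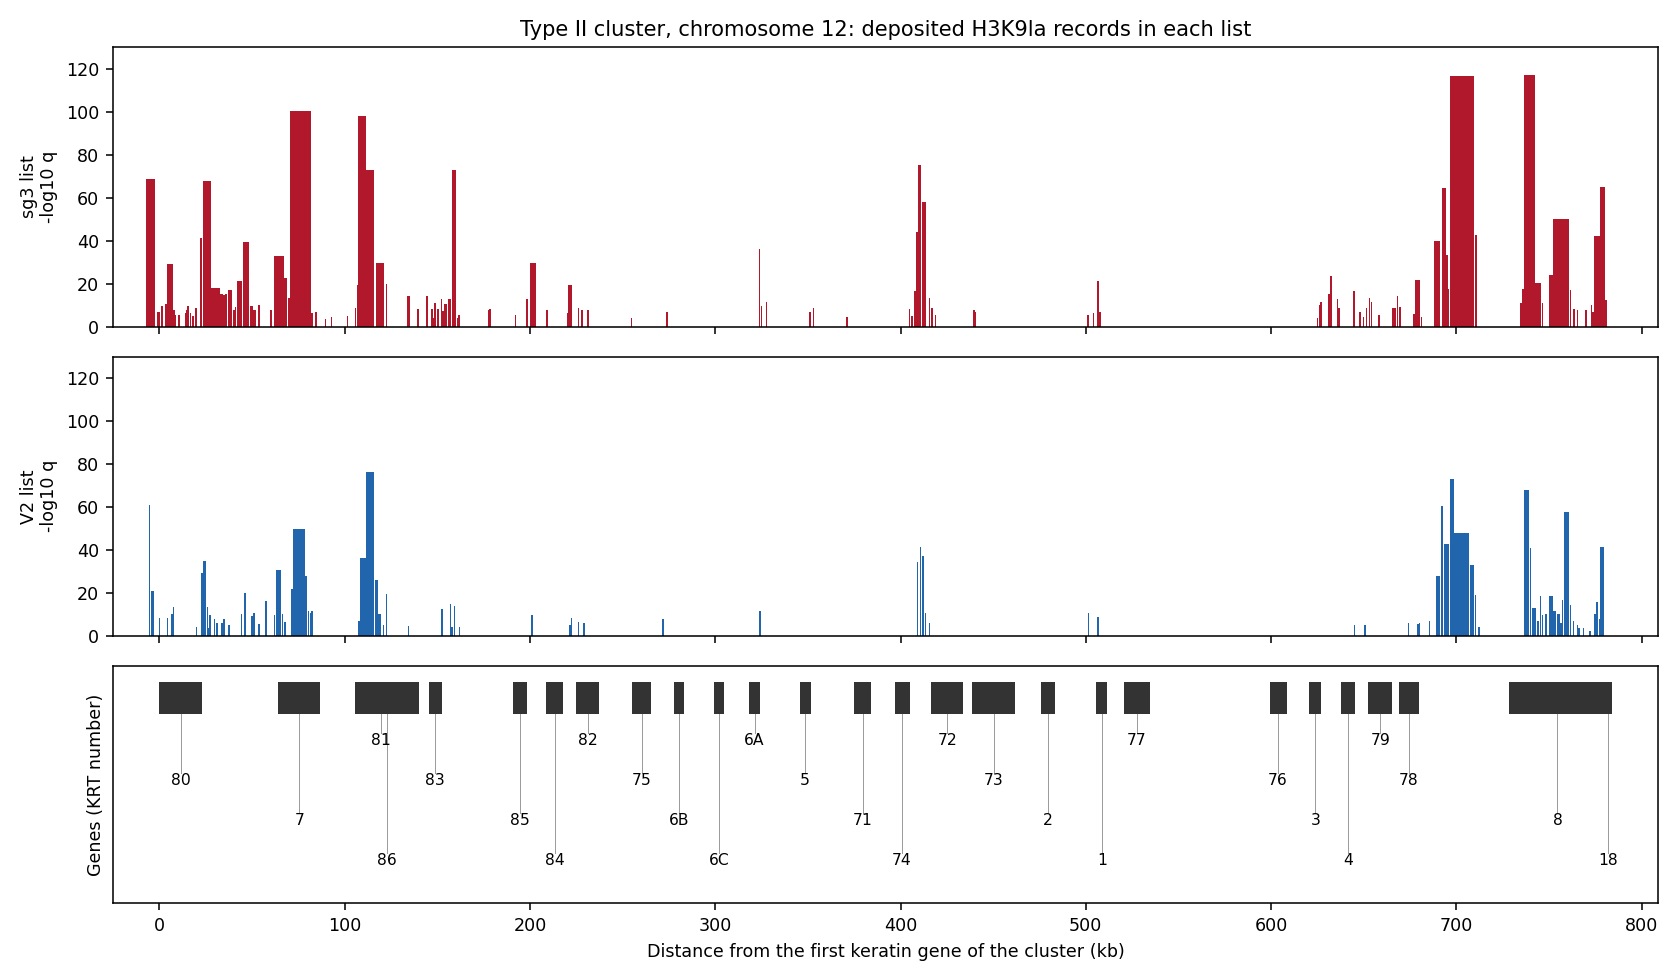
Records along the type II cluster, with distance from the first base of KRT80 in kb on the x axis and -log10 q on the y axis for sg3 (top) and V2 (middle); bar width is the record's width, with a drawn minimum of 0.8 kb, and the bottom row shows the keratin genes by number. Tall bars stand toward both edges and between KRT74 and KRT72, and the stretch with KRT77 and KRT76 has none in either list.

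Along chromosome 17 the type I cluster (40654665 to 41624575, 969.9 kb) had 104 sg3 records over 13.3% of its bases and 77 V2 records over 6.59%, against 4.32% and 2.62% of the whole chromosome. Here too a stretch of like gene density was not measured. The keratin-associated protein genes in the middle of the cluster were nearly bare, with 1.09% of their 322.3 kb covered in sg3 and 0.298% in V2. From KRT33A to KRT17 the shares were 29.1% and 12.6%, and from KRT222 to KRT40 they were 8.36% and 5.85%. Of the records from KRT222 to KRT40, 15 of 32 in sg3 and 17 of 31 in V2 had their summits in the 37.5 kb between KRT20 and KRT23. The strongest there ran from 40902429 to 40906410 in sg3 (15.7 and 88.9) and from 40901025 to 40902106 in V2 (29.7 and 105.3), above 98.1% and 99.5% of their lists. These records do not overlap, so the strongest site of the stretch differed between the lists. Both sites were called in both lists, however. A V2 record with a -log10 q of 77.7 lay inside the strongest sg3 record. An sg3 record with a -log10 q of 62.4 overlapped the strongest V2 record. Between KRT19 and KRT9, another 37.5 kb, 54.6% of bases were covered in sg3 and 29.1% in V2. Between KRTAP17-1 and KRT33A a 7535-base sg3 record from 41322854 to 41330388 (-log10 q 70.5) faced a V2 record of nearly the same extent, from 41322934 to 41329436, with a -log10 q of 17.4. They stood above 96.1% and 65.8% of their own lists. The stretch without a record around KRT25, KRT26, KRT27 and KRT28 was 110.6 kb in sg3 and 98.2 kb in V2.

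**Figure D4:**
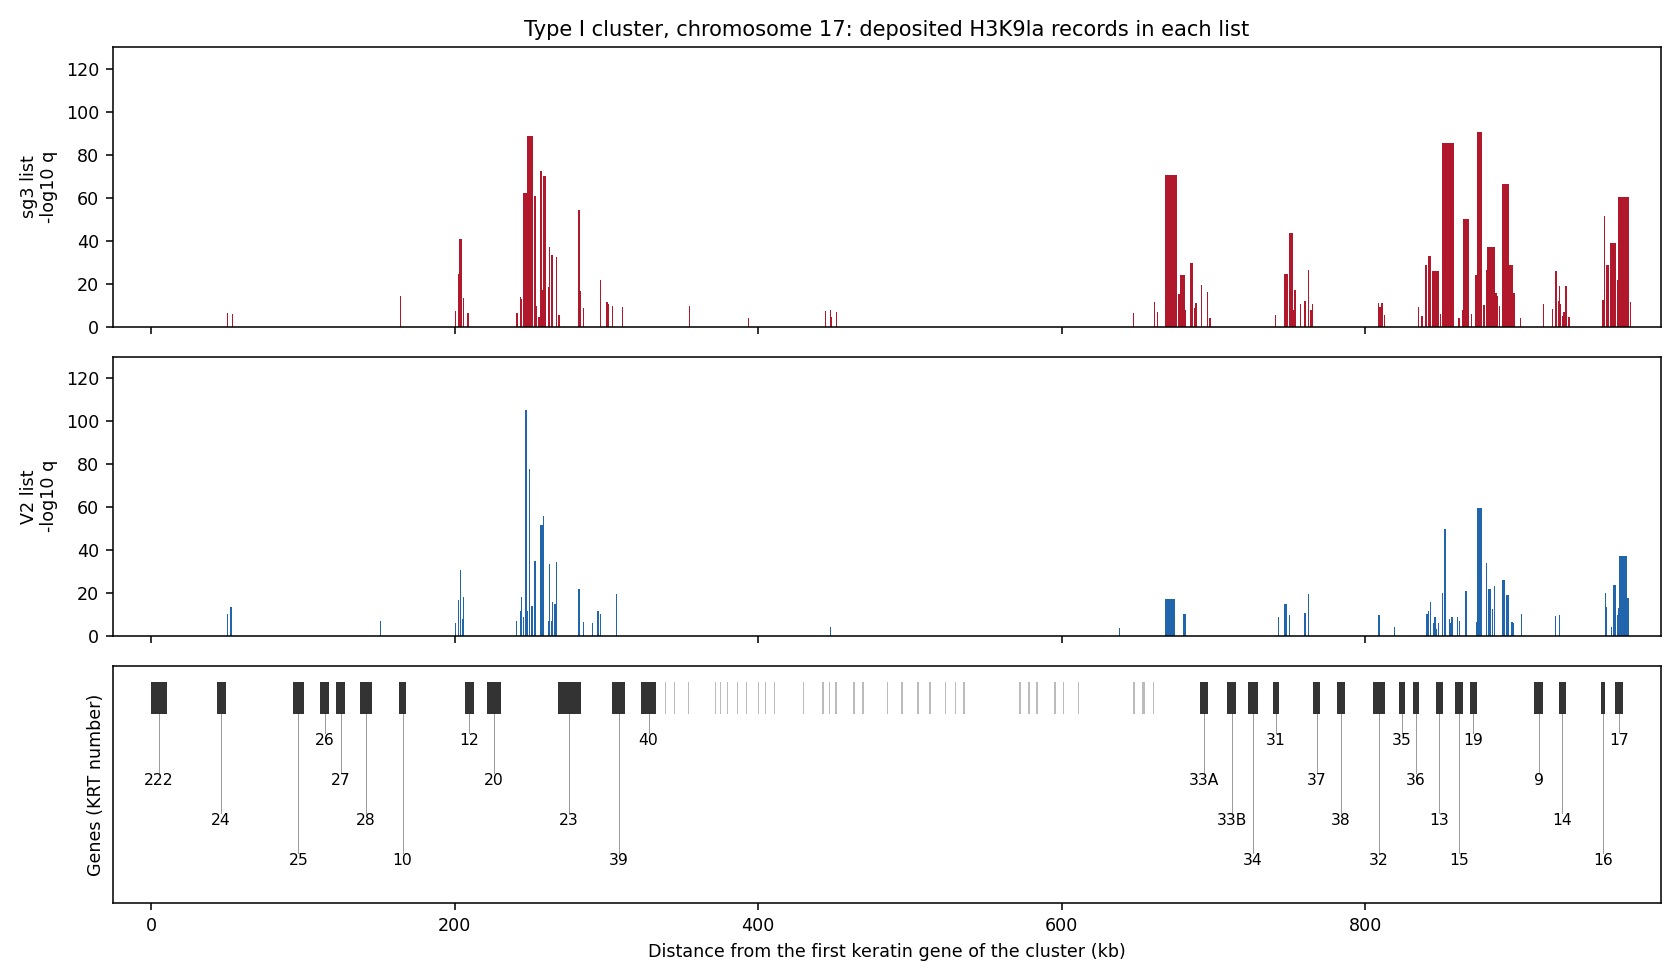
Records along the type I cluster, drawn in the same way as those of the type II cluster, with distance from the first base of KRT222 in kb on the x axis; keratins are dark and keratin-associated protein genes grey. Tall bars stand between KRT20 and KRT23 and from KRT13 to KRT17, and 1.09% of the keratin-associated stretch is covered in sg3.

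Counted once each, 174 sg3 and 117 V2 records overlapped a keratin gene or lay within 5 kb. Of the V2 records 104 overlapped an sg3 record by at least 1 base, which is 88.9% (95% CI 81.7 to 93.9%), against 86.3% of the whole V2 list. Of the sg3 records 67 overlapped a V2 record, which is 38.5% (95% CI 31.2 to 46.2%), against 52.4% of the whole sg3 list. Neighbouring records are not independent, so the intervals given for records are too narrow, and the difference was not tested. A broad sg3 record counts once however many V2 records it holds. Median widths at keratins were 659.5 bases in sg3 and 585.0 in V2, against 618.0 and 560.0 in the whole lists, and the median fold enrichment was 5.46 and 5.48, against 4.97 and 5.22. The median -log10 q was lower at keratins, at 10.5 in sg3 and 10.4 in V2, against 13.0 and 12.6 in the whole lists. Records of at least 5 kb numbered 8 in sg3 (4.60%, 95% CI 2.01 to 8.86%, against 1.32% of the list) and 1 in V2 (0.855%, against 0.384%). The 8 broad sg3 records lay at KRT80, KRT7, KRT8, KRT13, KRT15 and KRT17, and each held 3 to 5 V2 records. V2 records covered 92.5% of the one at KRT17, 77.2 to 80.6% of those at KRT80, KRT7 and KRT8, and 47.1% and 39.8% of the pair at KRT13, of which the second lies 607 bases from KRT15.

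Keratin genes overlapped by a record had a larger median share of their length covered than all overlapped genes of any length. Among the 35 keratins overlapped by an sg3 record (63.6%, against 51.9% of all genes and 49.3% of those as long as keratins) the median share of the gene covered was 18.0%, against 3.40% over all overlapped genes. For the 22 overlapped by a V2 record (40.0%, against 33.7% and 29.6%) it was 11.7%, against 2.57%. At least 50% of the gene was covered at 8 keratins in sg3, or 14.5% of them, against 2.47% of all genes. These were KRT80, KRT7, KRT81, KRT8, KRT13, KRT14, KRT16 and KRT17. In V2 it was so at 3 keratins, KRT7, KRT81 and KRT17 (5.45%, against 0.886%). Many keratin genes are short, and a short gene is filled by fewer bases. The covered shares were not computed for the genes as long as keratins, so the part of gene length in these differences was not tested.

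Gene starts with strand were given by the RefSeq promoter table for 34 keratins. Its windows run from 250 bases before the start to 50 bases after it. An sg3 record lay over the window of 8 of the 34, which is 23.5% (95% CI 10.7 to 41.2%), against 31.9% of 15812 protein-coding genes with a window. These were KRT85, KRT3, KRT4, KRT79, KRT8, KRT33A, KRT36 and KRT9. A V2 record lay over 3 windows, those of KRT4, KRT8 and KRT31, which is 8.82% (95% CI 1.86 to 23.7%), against 13.9%. The window of KRT8 belongs to a start inside its span. At KRT5, on the minus strand, the sg3 record inside the gene stopped short of the window, with its summit 327 bases from the start. Not analysed in this way were KRT6A, KRT6B, KRT6C, KRT7, KRT1, KRT72, KRT77, KRT78, KRT80, KRT81, KRT83, KRT86, KRT13, KRT14, KRT15, KRT16, KRT17, KRT18, KRT19, KRT23 and KRT222. They include every keratin covered over at least 50% of its length in sg3 except KRT8. The shares of windows with a record therefore do not stand for the whole family.

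The 250 bases before the start are shown for 6 keratins with a record over the window, 5′ to 3′ on the strand of the gene (RefSeq, GRCh38.p14), to set the letters of these promoters beside their records (at most 2 per role group, by the highest -log10 q). All 6 genes are on the minus strand. Capitals mark a match to a motif on either strand among AP-1 (TGANTCA), AP-2 (GCCNNNGGC), SP1 (GGGCGG), the TATA box (TATAAA) and the antioxidant response element (TGACNNNGC). A sequence without capitals holds none of them. The AP-2 letters read the same on both strands, and no marked motifs overlap one another.
KRT8, chr12:52926470-52926719: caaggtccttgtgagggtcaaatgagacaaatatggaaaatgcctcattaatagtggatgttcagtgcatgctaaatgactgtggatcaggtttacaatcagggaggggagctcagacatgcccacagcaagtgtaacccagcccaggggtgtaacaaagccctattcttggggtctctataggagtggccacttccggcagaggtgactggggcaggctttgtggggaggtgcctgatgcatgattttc
KRT4, chr12:52814117-52814366: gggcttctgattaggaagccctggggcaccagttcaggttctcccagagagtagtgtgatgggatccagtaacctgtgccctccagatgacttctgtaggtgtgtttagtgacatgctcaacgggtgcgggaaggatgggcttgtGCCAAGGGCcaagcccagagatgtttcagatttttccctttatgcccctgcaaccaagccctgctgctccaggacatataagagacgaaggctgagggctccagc
KRT33A, chr17:41350829-41351078: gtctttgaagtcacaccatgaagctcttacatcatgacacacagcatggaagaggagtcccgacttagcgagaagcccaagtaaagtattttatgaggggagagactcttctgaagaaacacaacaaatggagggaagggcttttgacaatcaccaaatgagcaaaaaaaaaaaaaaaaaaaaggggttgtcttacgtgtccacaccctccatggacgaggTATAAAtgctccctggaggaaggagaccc
KRT85, chr12:52367482-52367731: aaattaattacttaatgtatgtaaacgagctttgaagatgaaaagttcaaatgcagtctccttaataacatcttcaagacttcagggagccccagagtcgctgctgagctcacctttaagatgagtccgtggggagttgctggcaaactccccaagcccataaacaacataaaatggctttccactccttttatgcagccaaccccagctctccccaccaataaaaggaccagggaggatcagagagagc
KRT3, chr12:52796118-52796367: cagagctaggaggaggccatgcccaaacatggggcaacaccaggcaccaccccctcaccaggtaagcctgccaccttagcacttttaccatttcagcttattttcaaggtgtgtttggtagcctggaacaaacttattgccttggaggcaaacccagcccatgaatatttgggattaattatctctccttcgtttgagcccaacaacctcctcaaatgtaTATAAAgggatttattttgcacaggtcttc
KRT9, chr17:41572060-41572309: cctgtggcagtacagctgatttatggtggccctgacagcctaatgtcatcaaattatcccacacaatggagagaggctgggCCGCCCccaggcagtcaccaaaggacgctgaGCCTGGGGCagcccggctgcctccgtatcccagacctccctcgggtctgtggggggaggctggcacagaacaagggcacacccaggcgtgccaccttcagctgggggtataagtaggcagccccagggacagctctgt

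KRT4, with records of both lists over its start, holds the AP-2 letters GCCAAGGGC at bases 105 to 97 before it. KRT33A and KRT3, with sg3 records there, hold the TATA letters 29 to 24 and 30 to 25 bases before the start. KRT9 holds the SP1 letters on the other strand and the AP-2 letters GCCTGGGGC. KRT8 and KRT85 hold none of the 5. Over the 34 keratin promoters of this length the TATA letters were in 20, or 58.8%, against 9.25% of the 15812 promoters. The SP1 letters were in 4, or 11.8%, against 56.0%, and AP-2 letters in 5, or 14.7%, against 24.2%. Antioxidant response letters were in 7, or 20.6%, against 11.5%. The AP-1 letters were in none of the 34, against 5.05% of the 15812 promoters. An approximate upper limit for such a count, taken as 3 of 34 and not as an exact interval, is 8.82%. The median GC content was 44.6% for these keratins and 62.4% for all promoters. A match is a description of the letters and not evidence of binding.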

How the data were processed

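H3K9la ChIP-seq of KYSE30 cells was deposited by the authors as 2 MACS2 narrowPeak lists on hg38. The submitters' processing notes name MACS2 2.2.9.1 and Bowtie2 2.5.1, with SAMtools 1.18, Trim Galore 0.6.10 and FastQC 0.12.1. The sources used here give no command line, control library, read depth or treatment of reads with several alignments, so no depth could be set beside a value. The fold enrichment (a ratio of pileup to background) and the -log10 q and -log10 p of each record are the authors' deposited values. The smallest -log10 q was 2.02 in sg3 and 2.01 in V2. The deposited integer score, 10 times the -log10 q without decimals in 99.98% and 99.82% of records, was not used, nor was the -log10 p. Summit offsets gave positions.

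Genes came from a RefSeq table of GRCh38.p14, the same build, with duplicate symbols counted once. A gene was counted when a record overlapped it or lay within 5 kb, and sharing between lists meant an overlap of 1 base or more. Overlap and coverage were computed with pandas 2.3.3 and numpy 2.4.6, tested on simulated intervals, and exact intervals with scipy 1.17.1. Chromosome lengths were the largest coordinates in the lists or gene table. Each keratin with a record is named, the others as a group, and promoters were taken by -log10 q, at most 2 per group. The keratins, their groups and the lists beside them were chosen with earlier results of these data known. With 1 library per arm no test was made. Alternatives changed the window, the placing point, the thresholds, the list length and the overlap.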

Additional observations from a re-analysis of the deposited data

How the results depend on the processing

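All 5 counts of keratin genes were recomputed under 8 alternatives. Over all results 58 values were computed. A count was held to have moved when it changed by more than 1.5 times, and a coverage, which has no replicate spread, when it left a binomial interval over bases that is very narrow, so small changes of coverage count as moves. By these rules 37 values did not move and 21 did. The counts in sg3 (34 to 43), in V2 (22 to 39) and in both lists (21 to 38) stayed within 1.5 times of 40, 31 and 30. Under every alternative 32 of the 40 sg3 genes, 17 of the 31 V2 genes and 17 of the 30 in both lists were counted. The sg3 and V2 shares over all protein-coding genes were recomputed only for records that overlap the gene. The other alternatives therefore show keratin counts without a background. The count in sg3 alone fell from 10 to 5 in lists of equal length and to 5 with a 10 kb window. It rose to 13 with records that overlap the gene, with a 1 kb window and at a -log10 q of at least 10. KRT3 was the one of the 10 that held under every alternative. The single V2-only gene became 0 at a -log10 q of at least 5, at a fold enrichment of at least 4, with records that overlap the gene and with a 1 kb window, and 2 in lists of equal length. Thresholds and list length move coverage by construction, since they remove records. The type I cluster was covered by sg3 over 12.8%, 11.0%, 12.4% and 11.5% of its bases (at a -log10 q of at least 5 and 10, a fold of at least 4, and equal length), and the type II cluster over 22.3%, 18.0%, 21.6% and 19.3%. For V2, whose list keeps its length, the first 3 settings gave 6.35%, 5.00% and 6.28%, and 11.9%, 9.42% and 11.6%. An overlap of at least 50% of the shorter record left the shared counts at 67 and 104. No paired analysis was possible because each arm has 1 library and no result comes from a test. Read depth is unknown, so a gene without a record was not called at this depth, which does not show that the mark is absent.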
